A study of Mus musculus with 3 samples.

Results

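Msx1, Msx2, Dlx5, Dlx6, Emx2, Meis1, Meis2, Lhx1 and Pax2 are 9 homeobox and paired-box genes that pattern the reproductive tract and lie outside the Hox clusters. Open chromatin was examined at each of them in the pregnant mouse uterus. A peak was counted for a gene when at least 1 base of it overlapped the annotated span of the gene or the 10 kb on either side. All 9 genes were found in the gene table of 21523 protein-coding genes, and 9 of the 12413 peaks in the list met the rule.

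The peaks came from FAIRE-seq, which recovers DNA that is not crosslinked to protein and so enriches nucleosome-depleted regulatory DNA. The tissue was the whole uterus of untreated wild-type C57BL/6J females aged 6 to 10 weeks, taken on gestation day 4 (the vaginal plug marking day 1), with blastocysts present in the uterine flush. The series holds 3 samples, all of this 1 group; the growth protocol names 3 mice, whereas the design text names 4 and speaks of RNA. The single peak table names no sample. It gives 1 value per peak, so the spread between mice cannot be given, library depth is unknown, and no comparison could be tested. A whole uterus mixes epithelium, stroma, muscle, vessels and immune cells with any embryos, so fewer cells with an open site and a weaker opening per cell cannot be told apart.

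Homeodomain proteins bind short AT-rich DNA words and set the identity of segments along developing ducts and limbs. In mice, Lhx1, Pax2 and Emx2 are needed to form the embryonic ducts from which the uterus and oviducts arise. Msx1 and Msx2 encode repressors that help to make the uterus receptive to the blastocyst. Dlx5 and Dlx6 are a linked pair of genes with a part in uterine gland formation, and Meis1 and Meis2 encode partners of Hox and Pbx proteins on DNA.

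Of the 9 genes, 8 (88.9%) had at least 1 peak in the gene or within 10 kb, beside 57.6% of all protein-coding genes. Dlx5 was the exception. The higher share of the 9 genes was not seen among the stronger peaks. Among the 6207 peaks of highest fold, 3 of 9 genes (33.3%) had a peak, close to the 36.2% of all protein-coding genes. Among the 6207 of highest −log10 q it was again 3 of 9, beside 35.9%. Only Emx2 had 2 peaks, so 1 of 9 genes had 2 or more, beside 19.9% of all protein-coding genes. The fold enrichment over local background, the authors' own score of a peak, had a median of 4.87 over the 9 peaks and ran from 2.91 to 12.4. Over the whole list the median was 5.80, and 6 of the 9 peaks lay below it. The 9 peaks were also mostly narrow, with a median width of 316 bp beside 427 bp in the whole list. The strongest of them lay at the start site of a neighbouring gene, Aatf; without it the median over the other 8 peaks was 4.62 and the highest value 7.15.

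**Figure D1:**
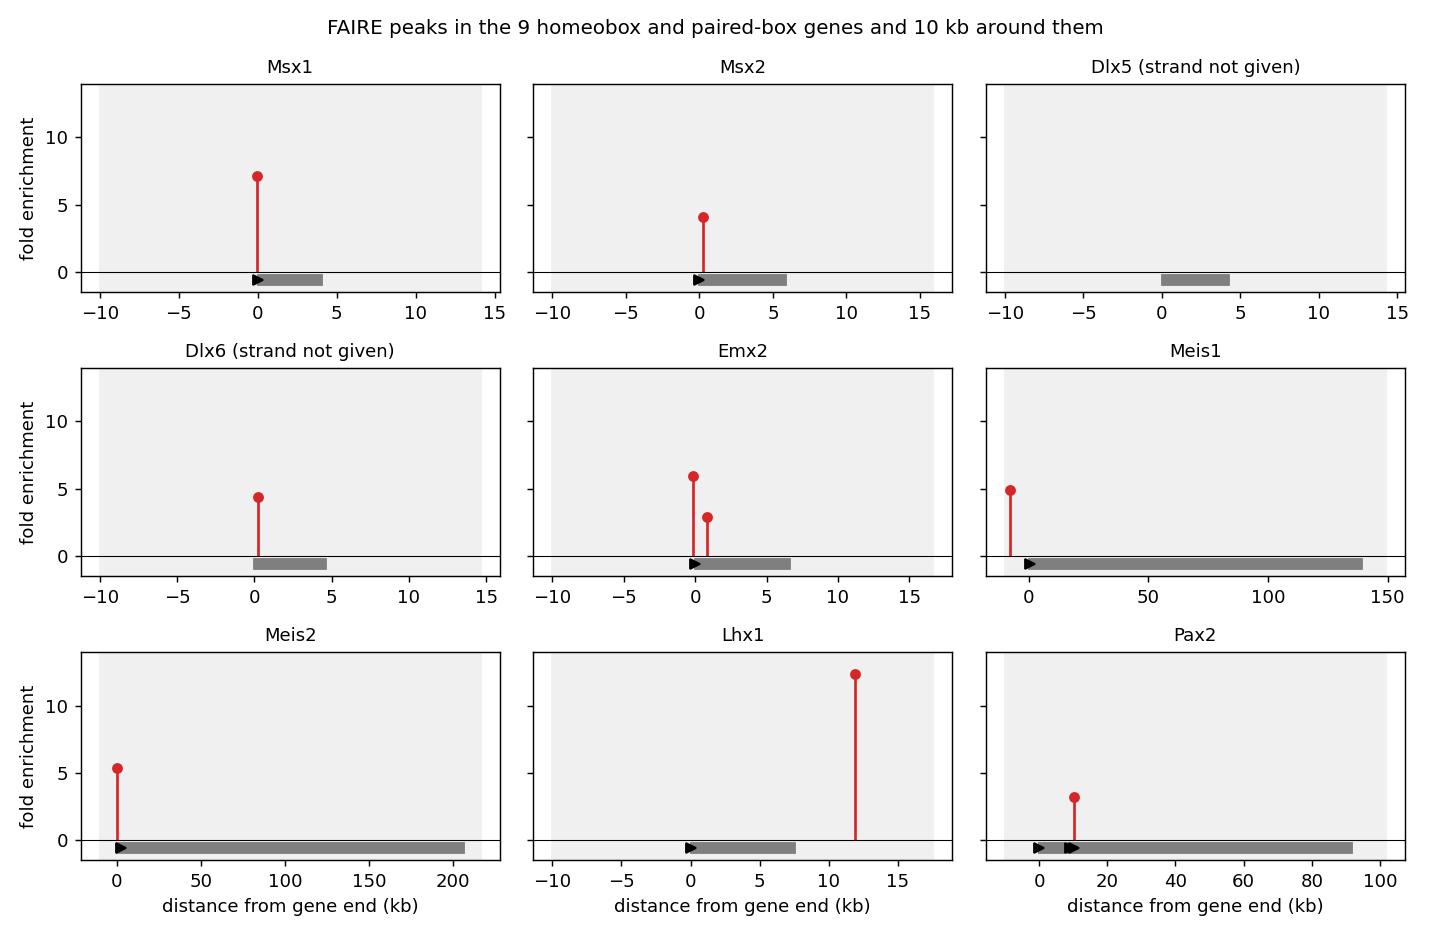
Each panel shows 1 gene (grey bar), the 10 kb on either side (shaded), listed start sites (black arrowheads) and peak summits (red stems, height giving the fold enrichment); the x axis is the distance in kb from the upstream end of the gene, or from its lower coordinate where no strand was given. Peaks sit at or near the upstream end of Msx1, Msx2, Emx2 and Meis2, outside Meis1, beyond the far end of Lhx1, at an internal start of Pax2 and near an end of Dlx6, and Dlx5 has none.

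Start sites were listed for 7 of the 9 genes; Dlx5 and Dlx6 were not in that table. A peak overlapped the window from 250 bases before to 50 bases after a listed start in 4 of the 7, namely Msx1, Msx2, Emx2 and Pax2, beside 41.5% of the protein-coding genes in the table. The 250 bases before each of these starts are shown because a peak covers part of them in each of these 4 genes. Peak bases past the start are not shown. They are read 5′ to 3′ along the gene from RefSeq (GRCm38.p6), with 3 motifs in capitals on either strand: the CCAAT box, the GC box GGGCGG and the homeodomain word TAATTA.

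Msx1 (chr5:37824586-37824835, minus strand): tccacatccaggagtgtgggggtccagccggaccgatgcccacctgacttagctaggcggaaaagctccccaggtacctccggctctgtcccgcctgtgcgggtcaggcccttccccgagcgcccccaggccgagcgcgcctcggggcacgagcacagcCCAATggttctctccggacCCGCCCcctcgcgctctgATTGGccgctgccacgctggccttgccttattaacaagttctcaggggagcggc
Msx2 (chr13:53472781-53473030, minus strand): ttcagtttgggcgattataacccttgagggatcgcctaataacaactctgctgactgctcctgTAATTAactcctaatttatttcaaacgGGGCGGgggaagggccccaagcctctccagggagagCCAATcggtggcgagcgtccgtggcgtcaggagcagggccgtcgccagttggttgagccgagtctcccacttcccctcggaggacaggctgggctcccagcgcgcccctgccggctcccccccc
Emx2 (chr19:59458440-59458689, plus strand): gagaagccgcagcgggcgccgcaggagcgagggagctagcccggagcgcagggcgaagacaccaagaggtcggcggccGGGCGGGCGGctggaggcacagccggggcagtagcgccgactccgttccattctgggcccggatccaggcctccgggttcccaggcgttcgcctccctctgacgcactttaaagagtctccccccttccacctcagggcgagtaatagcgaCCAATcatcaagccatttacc
Pax2, the third listed start (chr19:44756656-44756905, plus strand): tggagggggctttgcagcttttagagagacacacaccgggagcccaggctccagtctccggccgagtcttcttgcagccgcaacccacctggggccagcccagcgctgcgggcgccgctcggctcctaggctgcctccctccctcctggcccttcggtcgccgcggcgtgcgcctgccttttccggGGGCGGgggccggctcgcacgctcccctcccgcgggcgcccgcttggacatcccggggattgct

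Msx1 had the strongest peak at a start of its own. The peak (chromosome 5, 37824339 to 37824828, 490 bp) had a pileup (fragment coverage at the summit) of 78, a fold enrichment of 7.15 and a −log10 q of 38.5. Its fold exceeded that of 68.3% of all peaks. The summit lay 45 bp upstream of the start, and 243 of the 250 bases shown were inside the peak. The pair of CCAAT boxes in the sequence lay 5 and 42 bases from the summit, with a GC box between them, 22 bases from it.

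Msx2, its paralogue, had a weaker and wider peak. That peak (chromosome 13, 53472356 to 53472927, 572 bp) had a pileup of 34, a fold enrichment of 4.09 and a −log10 q of 9.53. Its fold exceeded that of 18.4% of all peaks, while its width exceeded that of 73.5%. The summit lay 258 bp downstream of the start, inside the gene, which is also within the span of the long non-coding RNA gene Gm33763. Of the bases shown, the 147 nearest the start were inside the peak: they hold the CCAAT box, whereas the TAATTA word, 187 bases before the start, and the GC box lay outside it. No other peak lay within 50 kb of Msx1 or Msx2. The next peak was 214.6 kb from the gene for Msx1 and 89.5 kb for Msx2.

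Emx2, which acts early in urogenital epithelium, was the only gene of the 9 with a pair of peaks. The upstream peak (chromosome 19, 59458349 to 59458681) had a pileup of 59 and a fold enrichment of 5.92, above that of 51.9% of all peaks. Its summit lay 154 bp before the Emx2 start and inside the span of the antisense gene Emx2os, so it cannot be given to either gene alone. The GC boxes in the Emx2 sequence overlap each other and lay 9 and 13 bases from this summit. The downstream peak (59459297 to 59459549), with its summit 810 bp past the start, had a pileup of 27 and the lowest fold of the 9, 2.91; only 0.693% of all peaks were lower. The gap between the 2 peaks was 616 bp.

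Pax2, a paired-box factor of the duct and kidney lineages, had its peak at an internal start. RefSeq lists 3 starts of Pax2, and the peak (44756735 to 44756952 on chromosome 19) had its summit 1 bp past the third. The first start lay 10306 bp and the second 1155 bp upstream of that summit, and neither window was overlapped by a peak. The peak was faint and short: a pileup of 29, a fold enrichment of 3.21 (above 2.60% of all peaks), a −log10 q of 5.47 and a width of 218 bp, close to the 217 bp of the narrowest peaks listed. A stronger peak of 6.25-fold lay beyond the 10 kb limit, 20.2 kb from the gene (44726136 to 44726424), and another of 3.50-fold 26.1 kb from it.

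**Figure D2:**
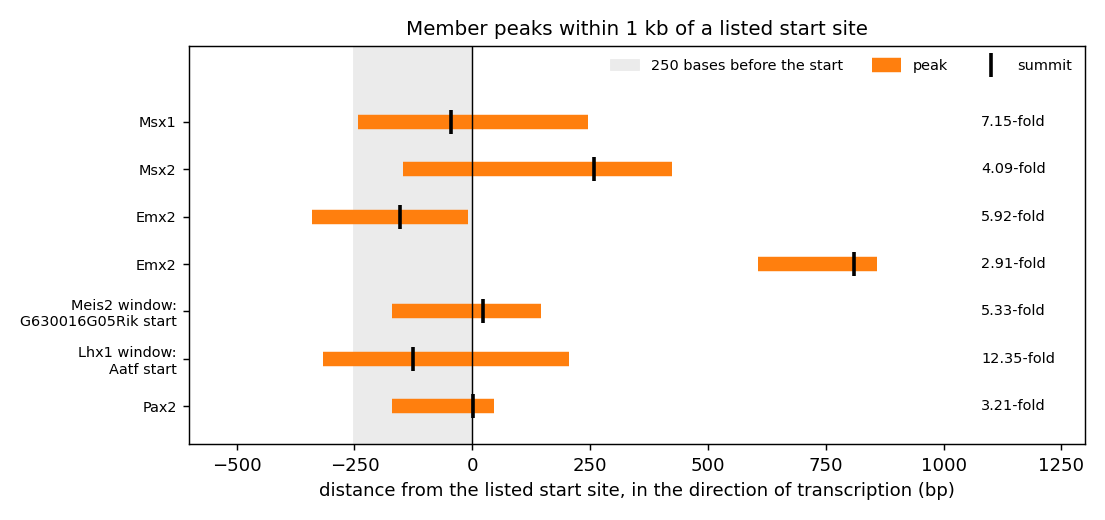
Peaks (orange bars) and summits (black ticks) are placed by distance in bp from the nearest listed start site, positive in the direction of transcription, for the 7 peaks whose summit lies within 1 kb of one; shading marks the 250 bases before the start, and the fold enrichment stands at the right. The peaks of Msx1, Msx2 and Pax2 straddle the start, the stronger Emx2 peak ends 9 bp before it, and the peaks counted for Meis2 and Lhx1 straddle starts of other genes.

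Lhx1, a LIM homeobox gene of duct formation, was counted only through its neighbour. The peak in its window was the strongest of the 9, with a pileup of 129, a fold enrichment of 12.4 (rank 241 of 12413) and a −log10 q of 91.9. It lay at 84513295 to 84513817 on chromosome 11, 4158 bp beyond the far end of Lhx1 and 11.9 kb from the Lhx1 start. Its summit was 126 bp upstream of the start of Aatf, a protein-coding gene with a part in ribosome production and cell survival. All 250 bases before the Aatf start were inside the peak, and none of the 250 before the Lhx1 start were. When each peak was given only to the nearest protein-coding gene, Lhx1 had none and the count was 7 of 9 (77.8%), beside 47.4% of all protein-coding genes under that rule. The 2 sequences show the start that was open and the one with no peak, marked as above.

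Lhx1 (chr11:84525535-84525784, minus strand): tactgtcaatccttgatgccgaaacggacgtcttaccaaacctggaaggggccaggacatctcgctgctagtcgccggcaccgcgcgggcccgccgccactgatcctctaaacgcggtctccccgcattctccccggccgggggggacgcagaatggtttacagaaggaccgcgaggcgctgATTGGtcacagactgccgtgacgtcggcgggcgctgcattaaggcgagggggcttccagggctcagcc
Aatf (chr11:84513502-84513751, minus strand): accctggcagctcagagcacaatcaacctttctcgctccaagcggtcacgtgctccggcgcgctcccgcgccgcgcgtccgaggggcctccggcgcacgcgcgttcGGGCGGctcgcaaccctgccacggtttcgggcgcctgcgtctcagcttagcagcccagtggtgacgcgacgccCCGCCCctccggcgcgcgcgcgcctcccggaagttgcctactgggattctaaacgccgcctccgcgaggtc

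The Meis genes are long, and each had a single peak. For Meis2 it lay at 116067055 to 116067370 on chromosome 2, with a pileup of 46, a fold enrichment of 5.33 and a −log10 q of 17.6. Its summit was 290 bp inside the upstream end of the gene span but 2628 bp upstream of the listed Meis2 start, whose window had no peak. The summit was also 22 bp past the start of G630016G05Rik, a long non-coding RNA gene on the opposite strand that overlaps this end of Meis2. The sequence before that start is shown because the peak covers its last 170 bases and because they hold TGATTGAC (in 0.732% of all start windows with a peak), the composite word that Pbx and Meis proteins bind together, 70 bases before the start and 85 bases from the summit. It is marked in capitals here with the CCAAT and GC boxes, and the first GC box overlaps the CCAAT box. The longer stretch shown holds no match of TGACAG, the word that Meis proteins bind alone.

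G630016G05Rik (chr2:116066975-116067224, plus strand): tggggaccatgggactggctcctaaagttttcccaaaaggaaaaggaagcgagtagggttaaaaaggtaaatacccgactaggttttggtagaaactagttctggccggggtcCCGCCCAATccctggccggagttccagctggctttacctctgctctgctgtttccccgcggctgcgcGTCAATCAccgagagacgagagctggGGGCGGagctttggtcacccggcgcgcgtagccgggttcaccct

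For Meis1 the peak (19027314 to 19027580 on chromosome 11) was 7663 bp outside the gene, with its summit 8484 bp upstream of the listed start. It had a pileup of 38, a fold enrichment of 4.87 and a −log10 q of 13.3. The 139.2 kb Meis1 span itself held no peak. The single Meis1 peak of 4.87-fold stood beside a median of 6.83 for the strongest peak among protein-coding genes of 0.5 to 2 times its span, of which 74.1% had a peak under the same rule. The 5.33 of Meis2 stood beside a median of 6.67 in genes of its size, of which 74.4% had a peak. For the short genes of the group (Msx1, Msx2, Dlx5, Dlx6, Emx2 and Lhx1) the share of genes of like span with a peak ran from 53.1% to 56.6%, and for Pax2 it was 73.1%.

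The Dlx5 and Dlx6 pair had 1 faint peak between them. It lay inside Dlx6 at 6863454 to 6863731 on chromosome 6, 262 bp from the end of the gene with the lower coordinate, with a pileup of 34, a fold enrichment of 4.37 and a −log10 q of 10.4. The antisense gene Dlx6os1 spans the same site, and the strand of Dlx6 was not given, so this end cannot be called its start. The peak was 14.1 kb from Dlx5, beyond the 10 kb limit. With 50 kb on either side Dlx5 gained it and all 9 genes had a peak, beside 70.8% of all protein-coding genes. Dlx6 and Msx2 had the same pileup, 34, and their folds differed only by the local background, 7.002 at Dlx6 and 7.55 at Msx2. The lowest background in the list was 7.002, and 17.4% of peaks, those at Dlx6 and Meis1 included, were within 0.001 of it.

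**Figure D3:**
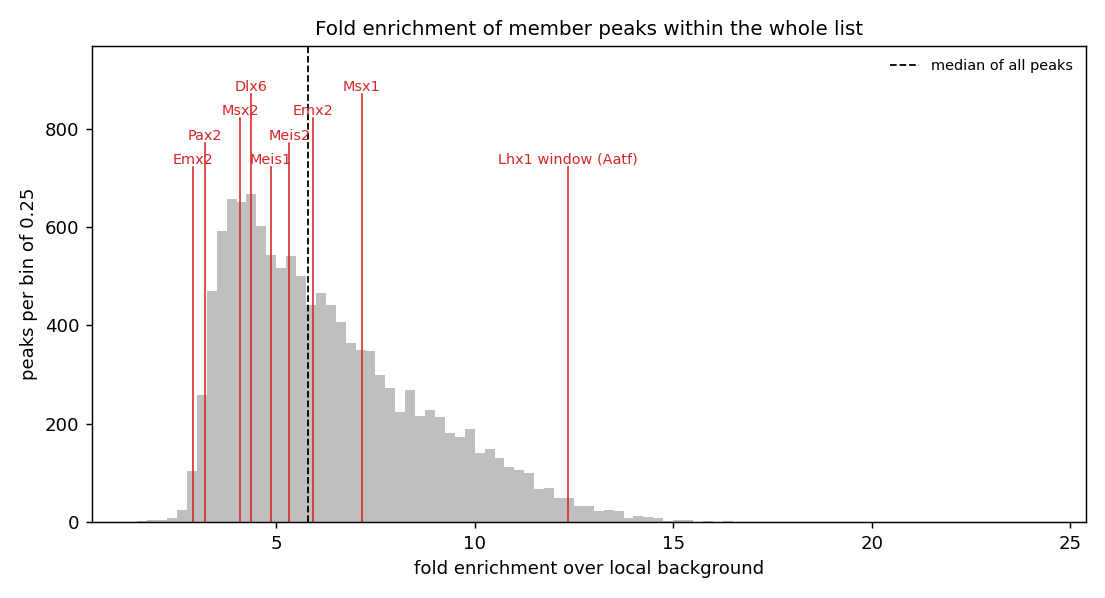
The histogram gives the fold enrichment of all 12413 peaks in bins of 0.25 (y axis, number of peaks), with the list median of 5.80 dashed and the 9 peaks marked as red lines. The 6 peaks left of the median belong to Emx2 (downstream), Pax2, Msx2, Dlx6, Meis1 and Meis2; the upstream Emx2 peak and that of Msx1 lie right of it, and the peak at Aatf in the Lhx1 window lies far to the right.

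Local background at the 9 peaks ran from 7.002 to 10.0 with a median of 8.35, beside 8.59 over all peaks. Pileup at the summit, the other part of the fold, had a median of 38 beside 55 over all peaks. By fold, the order was the peak at Aatf, Msx1, Emx2 (upstream), Meis2, Meis1, Dlx6, Msx2, Pax2 and Emx2 (downstream), and with 1 value per peak no neighbours in this order can be said to differ.

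Most of these peaks stood alone. The gap to the nearest other peak had a median of 94.9 kb over the 9, beside 28.7 kb over all peaks, and the only short gap was that between the Emx2 pair. The Meis peaks were the most isolated. At Meis1 the next peaks were 1073 kb away at lower and 892.6 kb away at higher coordinates. At Meis2 they were 1412 kb and 908 kb away. The nearer of these gaps exceeded that of 99.1% of all peaks for Meis1 and of 99.2% for Meis2. Few genes lay in between: 1 protein-coding gene, Meis1 itself, in the first stretch and 3, Meis2 included, in the second. The peak at Aatf, the strongest of the 9, was 305 kb from its nearest neighbour.

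**Figure D4:**
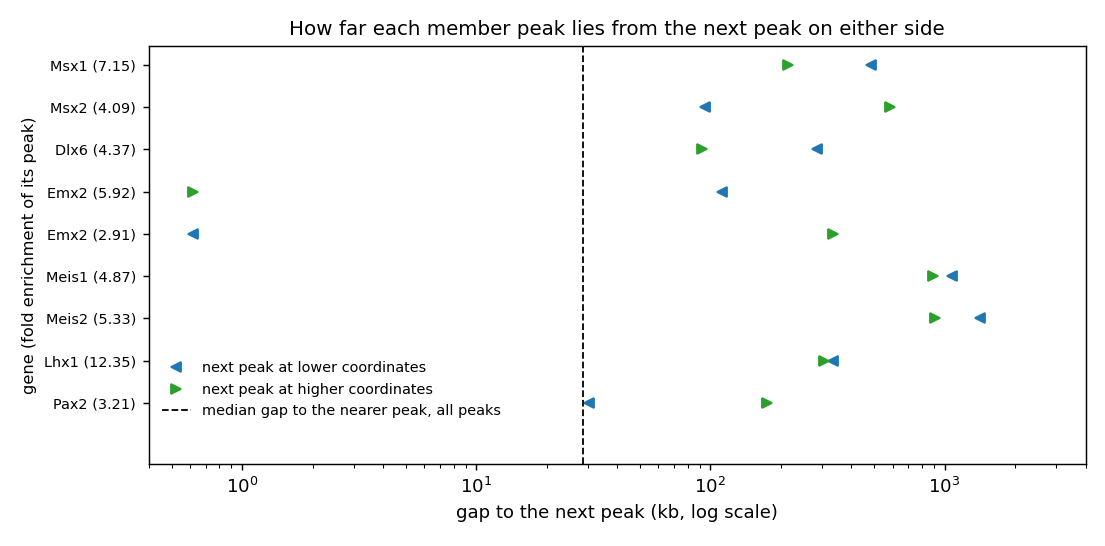
For each of the 9 peaks (rows, with the fold enrichment in brackets) the x axis gives the gap in kb, on a log scale, to the next peak at lower (blue) and higher (green) coordinates; the dashed line is the median gap to the nearer peak over all peaks, 28.7 kb. The Meis1 and Meis2 peaks lie 892.6 kb or more from others, the Emx2 pair 0.616 kb apart, and Pax2 nearest the dashed line on its lower side.

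Base composition and motifs of the start sequences were then set beside all 32619 start windows on the same chromosomes. The sequences before the starts of Msx1, Msx2, Emx2 and Pax2 (the third start) had 68.0%, 61.6%, 67.2% and 72.8% GC. The median was 65.2% over the 9021 windows with a peak and 48.8% over those with none. The starts with no peak had 64.8% GC at Lhx1, 59.6% at Meis1, 47.6% at Meis2, 52.8% at the first start of Pax2 and 60.8% at the second. GGGCGG occurred before all 4 starts with a peak, though outside the peak at Msx2. It was in 72.5% of all windows with a peak and 33.0% of all windows. CCAAT occurred at Msx1, Msx2 and Emx2, and in 33.9% of windows with a peak and 34.0% of all windows. TAATTA occurred at Msx2 alone of the 4, outside its peak, and in 0.942% of windows with a peak and 4.80% of all windows. The E-box CANNTG occurred in all but Emx2, and in 51.5% of windows with a peak and 66.2% of all windows. The other words were in none of the 4, and most were also rare in windows with a peak: the Pbx and Meis word TGATTGAC in 0.732% of them, the Meis word TGACAG in 11.7%, TGTTCT, a half-site of progesterone response elements, in 7.45%, the AP-1 site TGANTCA in 2.82% and TATAAA in 3.66%. Over all windows these 5 words stood at 0.696%, 15.6%, 16.1%, 6.78% and 12.4%. Among the starts with no peak, GGGCGG occurred at the second of Pax2 and CCAAT at Meis1, Meis2 and Lhx1. There CANNTG occurred at Meis1 and the second Pax2 start, TGACAG at Lhx1 and TATAAA at Meis2. The motif matches are letters in a window and do not show that a factor was bound.

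Other homeobox genes and their partners were looked up in a list of 50 genes. Of these, 34 (68.0%) had a peak by this rule and 14 had 2 or more, beside 57.6% and 19.9% of all protein-coding genes, and the median fold of their 60 peaks was 5.02. The 8 strongest values were in part neighbours' peaks as well. Tgif2, a TALE repressor, came first at 13.8-fold through a peak at the start of Rab5if, and another peak lay over the Tgif2 start itself. Pbx2, a Hox partner, was second at 12.6-fold through a peak inside Notch4, 4367 bp from Pbx2. Ldb1, which bridges LIM homeodomain proteins such as Lhx1, had 8.39-fold. The summit lay inside Ldb1, 55 bp upstream of the second of its 3 listed starts. Irx5 (8.30-fold) was counted through a peak at the start of the non-coding gene Crnde. Pax5 (7.97), Prrx2 (7.72) and Pknox2 (7.26) had theirs inside the gene, and at Pbx3 (7.15) the peak overlapped the gene with its summit outside.

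Of 10 direct paralogues of the 9 genes, 8 had a peak, beside 57.6% of all protein-coding genes, and Msx3 was among the 8 only through a neighbour. Meis3 had 5.87-fold with the summit 7 bp past its start, and Emx1 had 4.62-fold with the summit 95 bp past its start. Dlx1 stood at 4.37-fold, the value of Dlx6, with the summit 230 bp past its start. Dlx3 (7.06-fold), Dlx4 (4.12) and Lhx5 (3.87) also had a peak inside the gene, as did Pax5, whereas Msx3 (7.06) was counted through a peak at the start of Zfp511, 9335 bp away. Dlx2 and Pax8 had none.

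Hox genes and the Hand, Twist and Id genes, other patterning factors, were set beside the 9 as a description. At least 1 peak was found for 8 of the 9 genes, 31 of 39 Hox genes and 7 of 8 Hand, Twist and Id genes. The share of all protein-coding genes was 57.6%. In the same order, 1 of 9, 18 of 39 and 3 of 8 genes had 2 or more peaks, beside 19.9% of all protein-coding genes. Neighbouring Hox genes share peaks, and 24 distinct peaks served all 31. The median fold was 4.87, 4.00 and 4.58, and 3 of 9, 1 of 24 and 2 of 13 peaks exceeded the list median of 5.80. These differences were not tested.

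**Figure D5:**
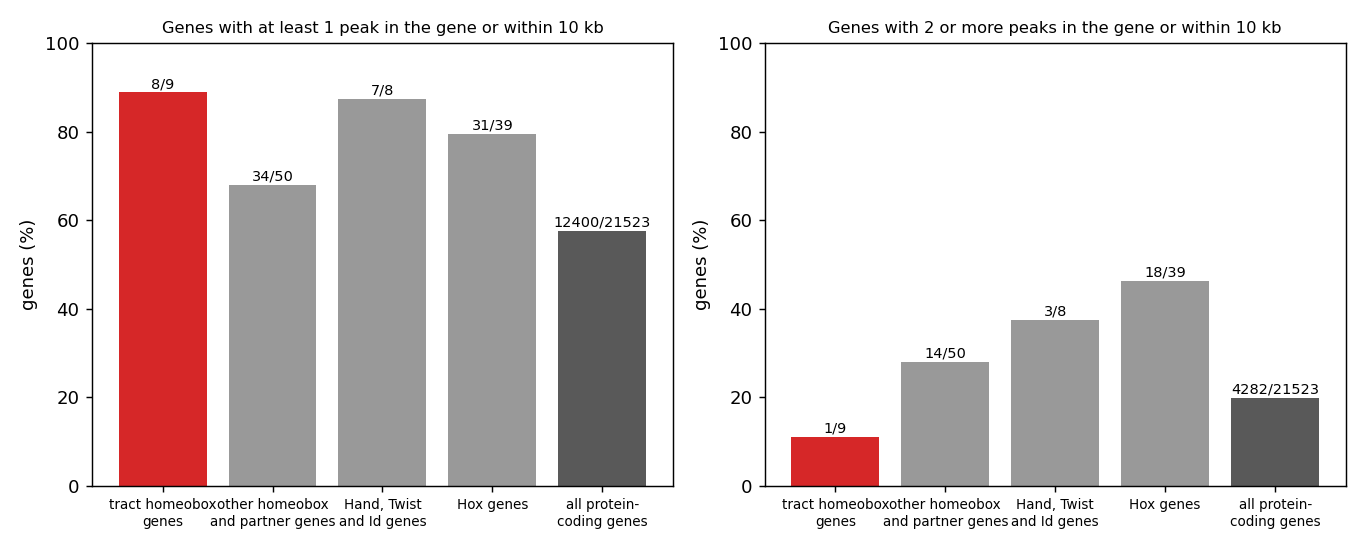
Bars give the percentage of genes with at least 1 peak (left) and with 2 or more (right) in the gene or within 10 kb, with counts above, for the 9 tract genes (red), 3 other lists and all protein-coding genes. The 9 genes stand at 8 of 9 on the left and 1 of 9 on the right, beside 57.6% and 19.9% of all protein-coding genes.

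Markers of the cell types of the uterus were looked up by the same rule. A peak was found for 3 of 5 smooth muscle, 2 of 5 epithelial, 3 of 5 stromal, 1 of 4 endothelial, 2 of 3 immune and 3 of 5 blastocyst markers, and for 0 of 5 markers of other organs. The uterine and blastocyst markers together stood at 14 of 27 (51.9%), near the 57.6% of all protein-coding genes, so these counts do not identify the tissue. Those with a peak were Actg2, Cnn1 and Des of muscle, Epcam and Cdh1 of epithelium, and Hoxa10, Hoxa11 and Nr2f2 of stroma. Hoxa10 and Hoxa11 were counted through the same 2 peaks. Flt1 of endothelium, Cd68 and Spi1 of immune cells, and Eomes, Pou5f1 and Tead4 of blastocysts also had one. Those without were Acta2 and Myh11 of muscle, Krt8, Krt18 and Krt19 of epithelium, and Vim and Pdgfra of stroma. Cdh5, Kdr and Pecam1 of endothelium, Ptprc of immune cells, and Cdx2 and Nanog of blastocysts also had none. Start sites were listed for 19 of the uterine and blastocyst markers. A peak overlapped a start window in 2 of these 19, beside 41.5% of the protein-coding genes with a listed start. A peak shows open chromatin and not expression, and the part of each cell type in the peaks above was not tested.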

How the data were processed

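A table of FAIRE-seq peaks from whole mouse uteri (3 samples of 1 group) was analysed; it names no sample. Per the submitters' processing notes, FastQC, Bowtie2, HOMER and MACS2 were used with the build GRCm38.p5; their versions, the call threshold, any control and any pooling of libraries are not stated in them. Each deposited peak carries, per the file headers, a pileup (coverage signal at the summit), a fold enrichment (ratio to local background) and a −log10 q-value; these are the authors' values, and positions are in bases. Local background was computed as (pileup + 1) / fold − 1.

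Gene spans came from the RefSeq table of GRCm38.p6 (chromosomes 1 to 19 and X; 340 genes with a start below 3 Mb left out), used for names, overlaps and distances. Start sites and sequences came from the RefSeq start table of the same build, whose chromosome coordinates are those of GRCm38.p5. The overlap minimum was 1 base. Python 3.11.15, pandas 2.3.3, numpy 2.4.6 and matplotlib 3.10.9 were used. The overlap step was tested on simulated data: 200 of 200 placed peaks were recovered.

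The table has no sample columns and no depth, so no test was run. The members and lists were chosen with earlier results of these data known. Named genes were the 9 members, genes nearest to their peaks, the 8 highest of 50 other homeobox and partner genes, and all 10 direct paralogues. Protein sequences and the sequence inside peaks were planned but not analysed here.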

Additional observations from a re-analysis of the deposited data

How the results depend on the processing

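The windows, the peaks used and the rule of overlap were varied. The count of 8 of 9 genes became 3 of 9 with the 6207 peaks of highest fold, and also with the 6207 of highest −log10 q (Msx1, Emx2 and Lhx1 in each case), with 3 peaks left. In these settings 7802 (36.2%) and 7716 (35.9%) of all protein-coding genes had a peak. Of the 50 other homeobox and partner genes, 20 and 17 had one. The share of the 9 genes, 33.3%, was then close to that of all protein-coding genes, and Lhx1 was counted through the peak at Aatf. The median fold of the members' peaks was 7.15 in each of these settings, which leave out weaker peaks and so raise it by design. Without the 10 kb on either side it was 4.23, and 6 of 9 genes had a peak, beside 48.8% of all protein-coding genes. With 50 kb it stayed at 4.87, over 11 peaks and 9 of 9 genes, beside 70.8%. Leaving out high-background peaks (over 10 times the median) left 8 of 9 genes and 9 peaks, beside 57.6% of all protein-coding genes. Asking for at least 0.5 of the peak, or its summit, inside left the same counts, beside 57.5% in each case. No mouse could be left out in turn and no paired analysis was possible because the table names no sample. Depth is unknown, so a gene with no peak had none listed, which does not show closed chromatin.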
